A study of Homo sapiens with 4 samples.

Results

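The early response to MYC siRNA was followed on 2 of the 4 arrays of the series, those of cells 8 h and 6 h after electroporation. The cells were OCI-Ly10, a lymphoma line long in culture that belongs to the activated B-cell class of diffuse large B-cell lymphoma. On the 8 h array, RNA of cells given 4 uM of a SMARTpool, a mixture of siRNAs against MYC, was set against RNA of cells given the same concentration of a nonspecific siRNA against Renilla luciferase. On the 6 h array, cells given the MYC pool were set against cells electroporated in Solution T, the electroporation buffer, without siRNA. The other 2 arrays repeat both designs at 24 h. Each array is 1 hybridisation of 1 transfected culture against 1 control culture, and nothing in the labels states that cultures were grown separately beyond that. P-values therefore measure only the spread between these arrays, which may be technical. The RNA of MYC siRNA cells carried Cy5 and the control RNA Cy3, and 0 arrays had the dyes swapped.

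MYC is a transcription factor that pairs with MAX and binds E-box sequences, of which CACGTG is the best known. Its known targets include genes for making ribosomes, for translation, for nucleotide and glucose metabolism and for building mitochondria, and it holds down some genes of growth arrest. Cells of the activated B-cell type depend on steady NF-kappaB signalling, in which REL-family factors enter the nucleus after their IkappaB inhibitors are degraded. Double-stranded RNA is a known trigger of the interferon response.

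Each value is a log2 ratio of MYC siRNA over control, so a negative value stands for less transcript in MYC siRNA cells. Neither log base nor direction is stated in the sources used here. The direction rests on the dyes named in the labels and on the sign of MYC itself, and is taken as likely. The 8 h array had values for 12784 features and the 6 h array for 12076, with 11072 on both. Averaging features of 1 gene gave 7274 rows with a value on both arrays, of which 4102 were named genes and 3172 were single features without a symbol. The median log2 ratio over rows was 0.003 at 8 h and -0.01 at 6 h, and the SDs over rows were 0.305 and 0.267. A ratio gives no level, so the B-cell label could not be checked against marker levels. Values were present for 13 of the 15 mature B-cell markers, 14 of 15 T-cell, 3 of 12 monocyte, 5 of 11 erythroid and 6 of 9 NK-cell markers.

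The 2 early arrays pointed the same way for most rows, but few rows could be told from 0. Both values were below 0 in 33.3% of rows and above 0 in 31.8%, and 65.1% of rows had 1 sign. The ratios of the 2 arrays correlated across rows at Pearson's r 0.336 and Spearman's rho 0.391, given as a description over 7274 rows that share the arrays and the dye orientation. By limma, 1 row passed an adjusted p of 0.05 below 0 (0.0137%) and 0 rows (0%) above 0. At an unadjusted p under 0.05 there were 730 rows below 0 (10%) and 546 above (7.51%), where 364 of 7274 would be expected by chance in all. The 1 row that passed was a feature without a symbol, with log2 ratios of -1.34 at 8 h and -1.44 at 6 h and an adjusted p of 0.0158. Since no named gene passed, genes are described below by the value on each array. A size of 0.3, or 1.23-fold, on both arrays was chosen after the data were seen, and 4.62% of rows reached it below 0 and 2.61% above 0. Among named genes that was 182 below 0 and 93 above. In a second fit, also chosen after the data were seen, all 4 arrays entered with time and control kind as terms. It called 129 of 6798 rows lower early (1.9%) and 86 higher (1.27%), with 17.5 prior degrees of freedom against 1 residual, so its errors rest mostly on the spread pooled over rows.

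**Figure D1:**
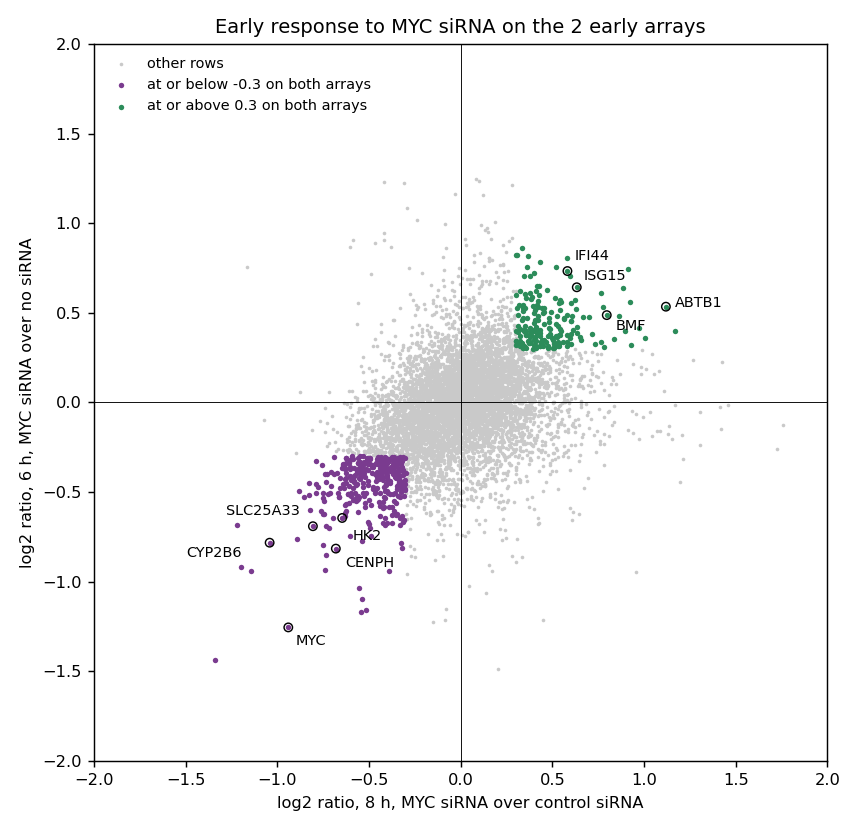
Log2 ratio of each row on the 8 h array (horizontal) and the 6 h array (vertical), with rows at or past 0.3 on both arrays in colour and some named genes circled; 5 rows lie outside the axes at 2. MYC lies at -0.94 and -1.26, and the coloured rows below 0 outnumber those above 0.

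MYC transcript itself was among the lowest of all. Its log2 ratio was -0.94 at 8 h and -1.26 at 6 h, or 52.1% and 41.9% of control. The mean was -1.10 ± 0.22 (SD, n = 2), with a limma standard error of 0.13 and an adjusted p of 0.0536, just short of the threshold; in the fit with time and control kind it was 0.000421, and over all alternatives it ran from there to 0.854. All 4 features of MYC lay below 0 at 8 h, from -0.66 to -1.21, and the 3 with a value at 6 h lay between -0.97 and -1.55. Both arrays and all features thus agree in sign. At 24 h the ratios were -0.35 against control siRNA and -1.03 against no siRNA. The sign of MYC helped to set the direction of all ratios, so these values are not separate evidence of knockdown.

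**Figure D2:**
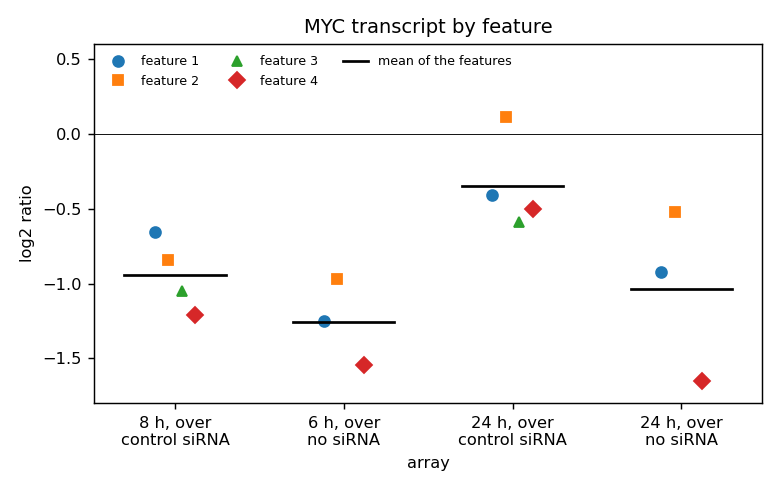
Log2 ratio of each of the 4 MYC features on each array (points) and their mean (bars). On both early arrays every feature with a value is below 0, while 1 feature is above 0 at 24 h against control siRNA.

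After MYC, the lowest named genes were those for a set of metabolic, nucleolar and chromosomal proteins. They are ranked by the array on which each lies nearer to 0, among genes with an unadjusted p under 0.05, and none passed the adjusted threshold (adjusted p 0.117 to 0.145 by limma for the 14 below). CYP2B6, a drug-metabolising cytochrome P450, had -1.04 at 8 h and -0.78 at 6 h. ETS1, a transcription factor of lymphocytes, had -0.72 and -0.70. SLC25A33, which carries pyrimidine nucleotides into mitochondria, had -0.81 and -0.69. For these genes the 2 arrays differed by less than 0.3. The rank and the p favour genes whose arrays lie close, so that closeness is no separate support. CYP2B6, ETS1 and SLC25A33 each rest on 1 feature, as do CENPH, NOL8, NPM3, DPH2, COCH, KAT6B and ZZEF1 below. Closeness of the arrays there is closeness of 1 feature with itself. Over 2025 genes with 2 or more features on both early arrays, the early means of the first 2 features correlated at Pearson's r 0.293. HK2, the hexokinase that starts glycolysis, had -0.65 on both arrays, and its 2 features lay between -0.51 and -0.78. CYCS, cytochrome c of the respiratory chain, had -0.69 and -0.64. CENPH, a kinetochore protein, had -0.68 and -0.82. The next genes include those of nucleolar proteins. CEBPZ, a factor of ribosome assembly, had -0.63 and -0.64, though its 2 features differed in size, with -0.35 and -0.50 for 1 and -0.91 and -0.77 for the other. NOL8, a nucleolar protein, had -0.75 and -0.62. NPM3, a nucleoplasmin-family chaperone, had -0.62 and -0.61. DPH2, an enzyme that builds the diphthamide residue of elongation factor 2, had -0.82 and -0.60. The last 4 genes are of other kinds. COCH, an extracellular matrix protein, had -0.76 and -0.60, and KAT6B, a histone acetyltransferase, had -0.60 and -0.75. ZZEF1 had -0.63 and -0.57. CEP290, a protein of centrosome and cilium, had -0.56 and -0.61, but its 2 features disagreed in size, with -0.37 and -0.10 for 1 and -0.75 and -1.13 for the other. At 24 h, 14 of the 15 lowest genes stayed below 0 on both arrays; ZZEF1 had -0.37 and 0.18. CYCS went on to -0.81 and -1.52, whereas ETS1 had -0.18 against control siRNA and -0.92 against no siRNA.

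**Figure D3:**
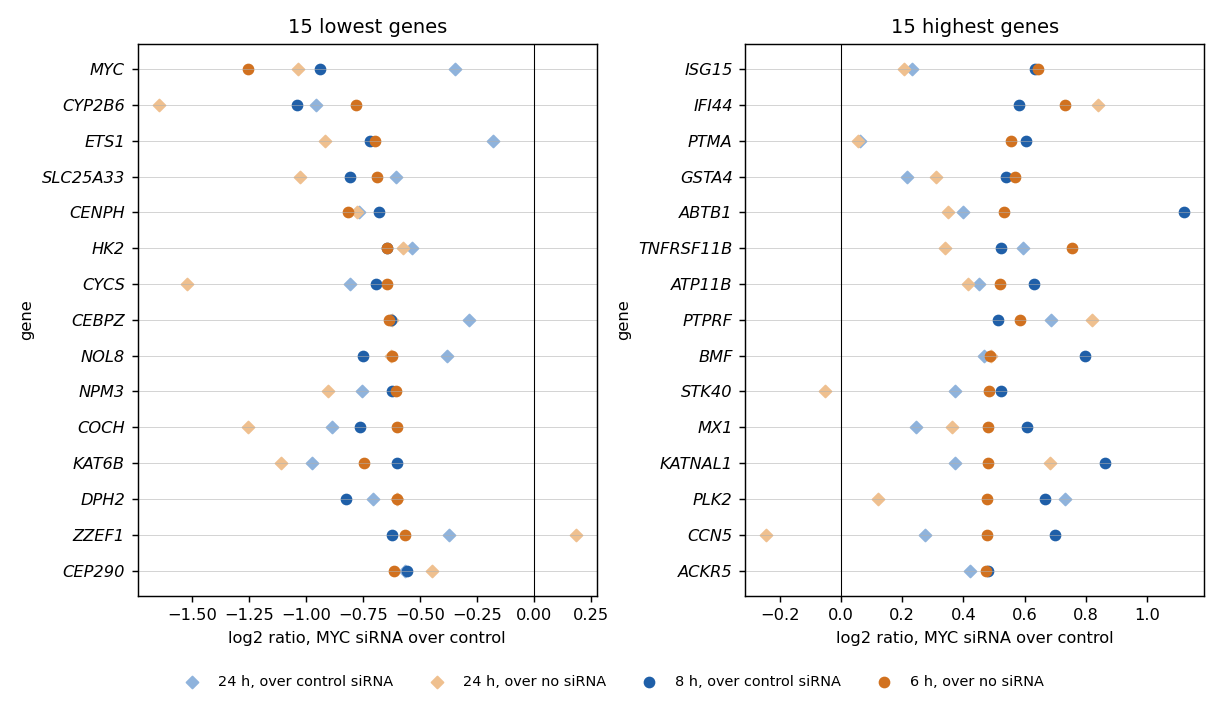
Log2 ratio on each of the 4 arrays for the 15 lowest (left) and 15 highest (right) named genes of the early arrays; circles are the early arrays and diamonds the 24 h arrays, 1 point per array. IFI44 and ACKR5 each lack a 24 h value, and PTMA lies near 0.06 on both 24 h arrays.

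Promoters of the lowest genes were searched for the E-box CACGTG, the site to which MYC and MAX are known to bind. The window runs from 250 bases before to 50 after the start of each gene in RefSeq (GRCh38.p14), and the motif reads the same on both strands. A promoter was found for 11 of the 15 lowest genes, and 3 of them held the motif, starting 9 to 26 bases before the start of the gene. SLC25A33 lies on the plus strand at chr1:9539215-9539514, with the first base of the motif at -26. NOL8 lies on the minus strand at chr9:92325301-92325600, with the motif at -9. DPH2 lies on the plus strand at chr1:43969760-43970059, with the motif at -18. The sequences are written 5′ to 3′ on the strand of the gene, with the E-box in capitals.
SLC25A33: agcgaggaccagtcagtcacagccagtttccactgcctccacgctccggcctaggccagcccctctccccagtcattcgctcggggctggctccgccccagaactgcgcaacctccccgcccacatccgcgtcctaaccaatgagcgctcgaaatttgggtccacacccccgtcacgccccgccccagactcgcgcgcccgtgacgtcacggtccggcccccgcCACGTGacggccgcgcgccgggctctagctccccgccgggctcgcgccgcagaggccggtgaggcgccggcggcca
NOL8: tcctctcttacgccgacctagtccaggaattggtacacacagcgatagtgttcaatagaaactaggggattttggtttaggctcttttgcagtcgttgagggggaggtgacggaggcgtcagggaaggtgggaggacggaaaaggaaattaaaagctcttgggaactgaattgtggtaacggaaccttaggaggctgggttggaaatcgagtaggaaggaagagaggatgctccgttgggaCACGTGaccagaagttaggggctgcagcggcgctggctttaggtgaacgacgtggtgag
DPH2: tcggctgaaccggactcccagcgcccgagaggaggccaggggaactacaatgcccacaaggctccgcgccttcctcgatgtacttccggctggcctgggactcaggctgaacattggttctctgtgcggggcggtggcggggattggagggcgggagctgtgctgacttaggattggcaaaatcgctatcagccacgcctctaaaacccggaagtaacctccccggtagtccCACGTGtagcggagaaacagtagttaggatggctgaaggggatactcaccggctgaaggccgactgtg
CACGTG stood in 7.43% of the 27305 promoters of the table and in 10.8% of the 3360 measured genes with a promoter. The share was 11.6% (18 of 155) among genes at or below -0.3 on both arrays, close to the 10.9% of the other measured genes, and 4.11% (3 of 73) among genes at or above 0.3. None of the 11 highest genes with a promoter held it. In the ribosome biogenesis list 6 of 17 promoters held it (35.3%) and in the list of mitochondrial import and ribosome 4 of 17 (23.5%). Among NF-kappaB targets 2 of 46 did (4.35%), and among interferon response genes 5 of 36 (13.9%). The related CACGCG, searched on both strands, stood in 17.8% of measured promoters, 24.5% of those of genes at or below -0.3 and 9.59% of those at or above 0.3. A match is a description of letters in this window, not a bound site.

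The highest named genes included interferon-induced genes and a promoter of apoptosis, again with none past the adjusted threshold (adjusted p 0.143 to 0.157 by limma). ISG15, a ubiquitin-like protein induced by interferon, had 0.63 at 8 h and 0.64 at 6 h, with its 3 features between 0.55 and 0.73. IFI44, also interferon-induced, had 0.58 and 0.73. MX1, an antiviral GTPase, had 0.61 and 0.48 over 3 features. The 3 genes lay above 0 on both arrays in every feature. BMF, a BH3-only protein that opposes BCL2, had 0.80 and 0.49. PLK2, a polo-like kinase known as a p53 target, had 0.67 and 0.48. PTMA, which encodes prothymosin alpha and is a textbook target activated by MYC, had 0.60 and 0.56 on its 1 feature. PTMA thus lay opposite to most genes of its list. TNFRSF11B, a decoy receptor of the TNF family, had 0.52 and 0.76. STK40, a kinase-like protein, had 0.52 and 0.48. KATNAL1, related to the microtubule-severing katanin, had 0.86 and 0.48, CCN5, a matricellular protein, had 0.70 and 0.48, and ACKR5, an atypical chemokine receptor, had 0.48 and 0.47. For some genes the features do not bear out the agreement of the arrays, or differ between them. ATP11B, a phospholipid flippase, had 0.63 and 0.52, but 1 feature gave 0.11 and 1.01 and the other 1.15 and 0.03. PTPRF, a receptor tyrosine phosphatase, had 0.51 and 0.58 from a different feature on each array. GSTA4, a glutathione transferase, had 0.54 and 0.57, but 1 of its features had a value at 8 h only (0.86), and the other gave 0.22 and 0.57; over that feature alone its mean was 0.39 in place of 0.55. ABTB1 had 1.12 and 0.53, where a feature with 0.17 at 6 h had no value at 8 h and the other gave 1.12 and 0.90.

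Many genes for ribosome assembly already lay below 0 in the early hours. Of 19 measured genes of ribosome biogenesis, 11 (57.9%) were below 0 on both early arrays, against 33.3% of all rows, and 2 above. The median was -0.19, where that of all 4102 named genes was -0.0025, and 5 of 19 (26.3%) were at or below -0.3 on both, against 4.44% of named genes. The 24 h median was -0.49, but 7 of 19 (36.8%) were higher early than at 24 h in both control pairs, against 27.1% of all rows, and 2 were lower. WDR36, of the small-subunit processome, had -0.71 and -0.47. NOP56, a core protein of the box C/D particles that guide RNA methylation, had -0.40 and -0.68. NPM1, nucleophosmin, had -0.50 and -0.55. The arrays agree in sign for each of them, which the choice of members required. DDX21, a nucleolar helicase, had -0.68 and -0.40, and NOLC1, a nucleolar scaffold, had -0.46 and -0.44. At an unadjusted p under 0.05 by limma, 7 of the 19 were lower and 0 higher, against 10% and 7.51% of all rows. At the adjusted threshold, 0 were. Of 11 genes of RNA polymerase I and III, 7 were below 0 on both arrays and 0 above, with a median of -0.18. POLR2H, a subunit shared by the nuclear polymerases, had -0.76 and -0.35, and TAF1D, of the polymerase I initiation complex, had -0.55 and -0.38.

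Translation factors and ribosomal protein genes are given by class, and no test of the difference between the classes was made. Of 22 translation factors, 14 (63.6%) were below 0 on both arrays and 5 (22.7%) above, against 33.3% and 31.8% of all rows. Their median was -0.21, and 9 were lower at an unadjusted p under 0.05 by limma, against 10% of all rows. GSPT1, a release factor, had -0.63 and -0.43, and EIF1AX, which acts in start codon scanning, had -0.58 and -0.41. Aminoacyl-tRNA synthetases had 7 of 12 below 0 on both and a median of -0.09, which was -0.18 on the 8 h array alone and -0.14 over features valued on both arrays; IARS1, the isoleucine enzyme, had -0.49 and -0.28. The 26 cytosolic ribosomal protein genes differed between the arrays. Their median was -0.17 at 8 h, with 21 of 26 below 0, and 0.10 at 6 h, with 10 below 0. Of 4102 named genes, 2021 were below 0 at 8 h and 2156 at 6 h. On both arrays 8 ribosomal protein genes were below 0, 30.8% and so near the background of 33.3%. RPL11, known to bind MDM2 outside the ribosome, was the only ribosomal protein gene at or below -0.3 on both, with -0.53 and -0.39.

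Genes of mitochondrial import and the mitochondrial ribosome had the highest share below 0 among lists of at least 8 genes. Of 17 measured, 14 (82.4%) were below 0 on both arrays, against 33.3% of all rows, and 2 above. The median was -0.17, and 6 were lower at an unadjusted p under 0.05 by limma, against 10% of all rows. TFAM, which packs and transcribes mitochondrial DNA, had -0.60 and -0.50, and MRPL19, a protein of the large mitochondrial ribosomal subunit, had -0.79 and -0.45. SLC25A33 and CYCS, given above, are members too. In the respiratory chain and TCA cycle, 6 of 22 genes (27.3%) were below 0 on both and 6 (27.3%) above, with a median of -0.0068. Those shares are near the 33.3% and 31.8% of all rows. No test of the difference between the lists was made.

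Medians of the metabolic lists lay between -0.13 and -0.034, with single genes of lower value. Their counts stand beside 33.3% of all rows below 0 on both arrays and 31.8% above. Of 27 genes of nucleotide synthesis, 17 (63%) were below 0 on both arrays and 5 (18.5%) above, with a median of -0.13. UCK2, a uridine-cytidine kinase, had -0.75 and -0.51, and GMPS, the enzyme that makes GMP, had -0.52 and -0.58. The median was -0.24 at 8 h and -0.041 at 6 h, so the list was lower at 8 h than at 6 h. In glycolysis 7 of 19 were below 0 on both and 5 above, with a median of -0.034. Besides HK2, LDHA, the lactate dehydrogenase subunit, had -0.43 and -0.39, while GAPDH had 0.41 and 0.19. Of 12 genes of one-carbon, serine and polyamine metabolism, 7 were below 0 on both; ODC1, the first enzyme of polyamine synthesis, had -0.32 and -0.30, and MTHFD1, a folate enzyme, had -0.41 and -0.28. Cholesterol synthesis had 6 of 12 below 0 on both, with FDPS, which makes farnesyl diphosphate, at -0.29 and -0.30.

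Chaperone genes had the lowest early median of all lists, -0.22. Below 0 on both arrays were 12 of 16 (75%), against 33.3% of all rows, and 1 was above. DNAJC2, a chaperone bound to the ribosome, had -0.42 and -0.67. BAG1, a cochaperone of HSP70, had -0.64 and -0.36, and HSP90AA1, the inducible HSP90, had -0.36 and -0.34. CCT3, a subunit of the chaperonin that folds actin and tubulin, had -0.42 and -0.18. Of the 16, 5 were lower at an unadjusted p under 0.05 by limma, against 10% of all rows. Splicing and mRNA export had 13 of 28 below 0 on both and a median of -0.086, with SRSF10, a splicing regulator, at -0.73 and -0.40, THOC1, of the export complex THO, at -0.39 and -0.58, HNRNPD at -0.45 and -0.43, and PRPF38B at -0.38 and -0.44. Of 10 proteasome genes 6 were below 0 on both, with none at or below -0.3.

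Genes known as MYC targets and partners were compared next. Of 28 textbook MYC-activated genes, 21 also stand in another list. Of the 28, 19 (67.9%) were below 0 on both arrays and 5 (17.9%) above, against 33.3% and 31.8% of all rows. The median was -0.20, and 10 were lower at an unadjusted p under 0.05 by limma, against 10% of all rows. TERT, the catalytic subunit of telomerase, had -0.39 and -0.94, and FKBP4, an HSP90 cochaperone, had -0.72 and -0.23. The exceptions included ENO1 with 0.18 and 0.14, CAD with 0.18 and 0.03, and PTMA. ENO1 and CAD encode a glycolytic enzyme and the first enzyme of pyrimidine synthesis. Of 19 genes that MYC is known to repress or that go with growth arrest, 11 were above 0 on both and 3 below, with a median of 0.094. KLF4 had 0.56 and 0.47 and ID2, an inhibitor of bHLH factors, had 0.51 and 0.32, while TXNIP, which restrains glucose uptake, had 0.05 and 0.09. Of 13 genes of the MYC network, MYC was the only one at or below -0.3 on both arrays. MAX, its partner, had -0.20 and -0.26, and MXD1, an antagonist of MYC, had -0.12 and 0.63.

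**Figure D4:**
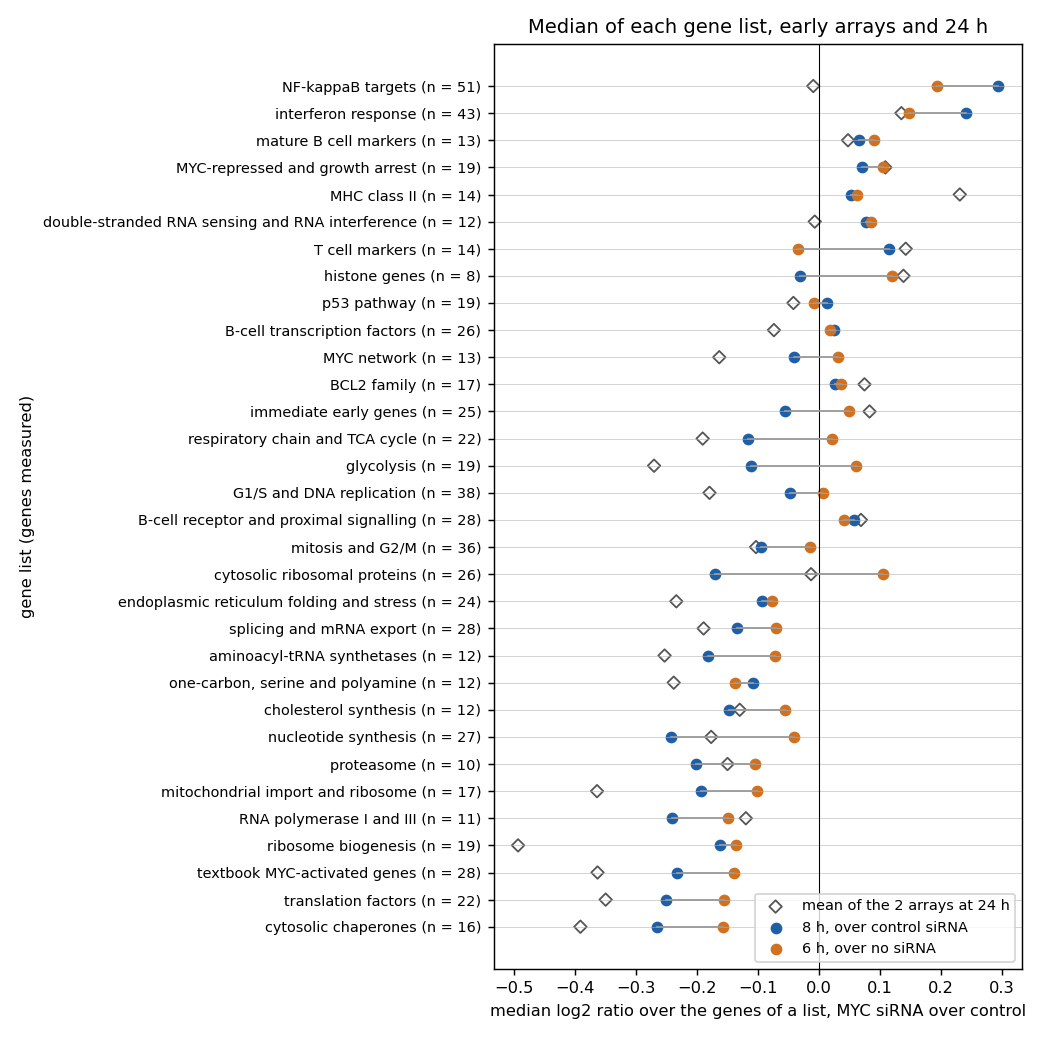
Median log2 ratio of each gene list with at least 8 measured genes at 8 h and 6 h (circles, joined by a line) and for the mean of the 24 h arrays (diamonds); the number measured is beside each name. NF-kappaB targets have the highest early medians, 0.29 and 0.19, and lie at -0.0099 at 24 h, while ribosome biogenesis has -0.16 and -0.14 early and -0.49 at 24 h.

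NF-kappaB targets lay above 0 early, as a broad shift of modest size. Of 51 measured, 38 (74.5%) were above 0 on both arrays and 2 (3.92%) below, against 31.8% and 33.3% of all rows. The median was 0.29 at 8 h, 0.19 at 6 h and 0.22 for the mean. This list, like the others, was written with earlier results of these data known. Single arrays had 45 of 51 above 0 at 8 h and 42 at 6 h, where 2077 and 1943 of 4102 named genes were. At an unadjusted p under 0.05 by limma, 21 were higher and 0 lower, against 7.51% and 10% of all rows. None passed the adjusted threshold by limma. In the fit with time and control kind 2 did, where 1.27% of all rows were called higher. Inhibitors of the pathway were among the targets above 0 on both arrays. NFKBIE, an IkappaB protein, had 0.61 and 0.40, and NFKBIA, the main IkappaB protein, had 0.31 and 0.29. TNFAIP3, the deubiquitinase A20, had 0.23 and 0.15. These feedback genes were named as members above 0 on both arrays, so their agreement in sign is no separate support. Subunits of the factor had 0.48 and 0.29 for NFKB1, 0.43 and 0.31 for NFKB2 and 0.42 and 0.38 for REL, while RELA had 0.07 and 0.10. RELA was thus nearer to 0 than NFKB1, NFKB2 and REL, and RELB had 0.06 and 0.37. Among secreted factors and surface proteins, CCL4 had 0.32 and 0.55, CCL3 had 0.41 and 0.42, CCL22 had 0.51 and 0.33, and TNF had 0.46 and 0.23. EBI3, a cytokine subunit, had 0.49 and 0.37. CD44, an adhesion receptor, had 0.63 and 0.42. BCL3, an atypical IkappaB protein, had 0.29 and 0.62 and GADD45B, a stress protein, had 0.58 and 0.26. Not all targets followed: IRF4 had 0.08 and -0.12, CXCL10 had 0.05 and -0.20, and STX11 had -0.11 and -0.14.

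At 24 h the NF-kappaB list no longer stood above 0. Its median was -0.0099, and 25 and 23 of the 49 genes with a value there were above 0 against control siRNA and no siRNA. Of 3954 named genes, 1973 and 1816 were. Within each control kind, 34 of 49 (69.4%) had a higher ratio early than at 24 h in both pairs and 5 a lower one, where 27.1% of all rows were higher and 27.4% lower. At an unadjusted p under 0.05, 9 were higher early and 1 lower, against 6.08% and 4.03% of all rows; at the adjusted threshold 0 were. NFKB1 had -0.15 and -0.22 at 24 h, NFKBIA had -0.10 and -0.15, NFKBIE had -0.03 and 0.09, and TNF had -0.35 and -0.06. Other members stayed above 0. On both 24 h arrays 16 of the 49 were above 0, a share near that of the 1358 of 3954 named genes. NFKB2 had 0.20 and 0.24 there, REL had 0.07 and 0.45, and EBI3 had 0.29 and 0.59. IL10, a cytokine of this lymphoma type, had 0.30 and 0.09 early and -0.31 and -0.41 at 24 h. CD44 had 0.38 and 0.39 at 24 h, and BCL3 had 0.28 and 0.59.

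Interferon response genes also lay above 0 early. Of 43 measured, 31 (72.1%) were above 0 on both arrays and 1 (2.33%) below, against 31.8% and 33.3% of all rows. The median was 0.24 at 8 h and 0.15 at 6 h. At 8 h 41 of 43 were above 0 and at 6 h 32, where 2077 and 1943 of 4102 named genes were. In this list 13 were higher and 0 lower at an unadjusted p under 0.05 by limma, against 7.51% and 10% of all rows. IFIT1, which binds foreign RNA, had 0.45 and 0.50, IFI44L had 0.34 and 0.54, and IFI6 had 0.38 and 0.37. OAS1, a sensor of double-stranded RNA, had 0.29 and 0.32, and EIF2AK2, the kinase PKR, had 0.42 and 0.22. Members with opposite signs included XAF1 with 0.52 and -0.38, and its 24 h values of 0.45 and -0.43 differed between the control kinds in the same way. The list kept a median of 0.13 at 24 h. Of 42 genes, 20 (47.6%) were higher early in both pairs and 8 (19%) lower, against 27.1% and 27.4% of all rows. Only 2 measured genes stand in both this list and the NF-kappaB list; without them the medians were 0.19 and 0.24. Of 12 genes of double-stranded RNA sensing and RNA interference, 6 were above 0 on both arrays and 2 below, with a median of 0.092. The part of siRNA delivery in these values was not tested; the control cells had siRNA on the 8 h array and none on the 6 h array.

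**Figure D5:**
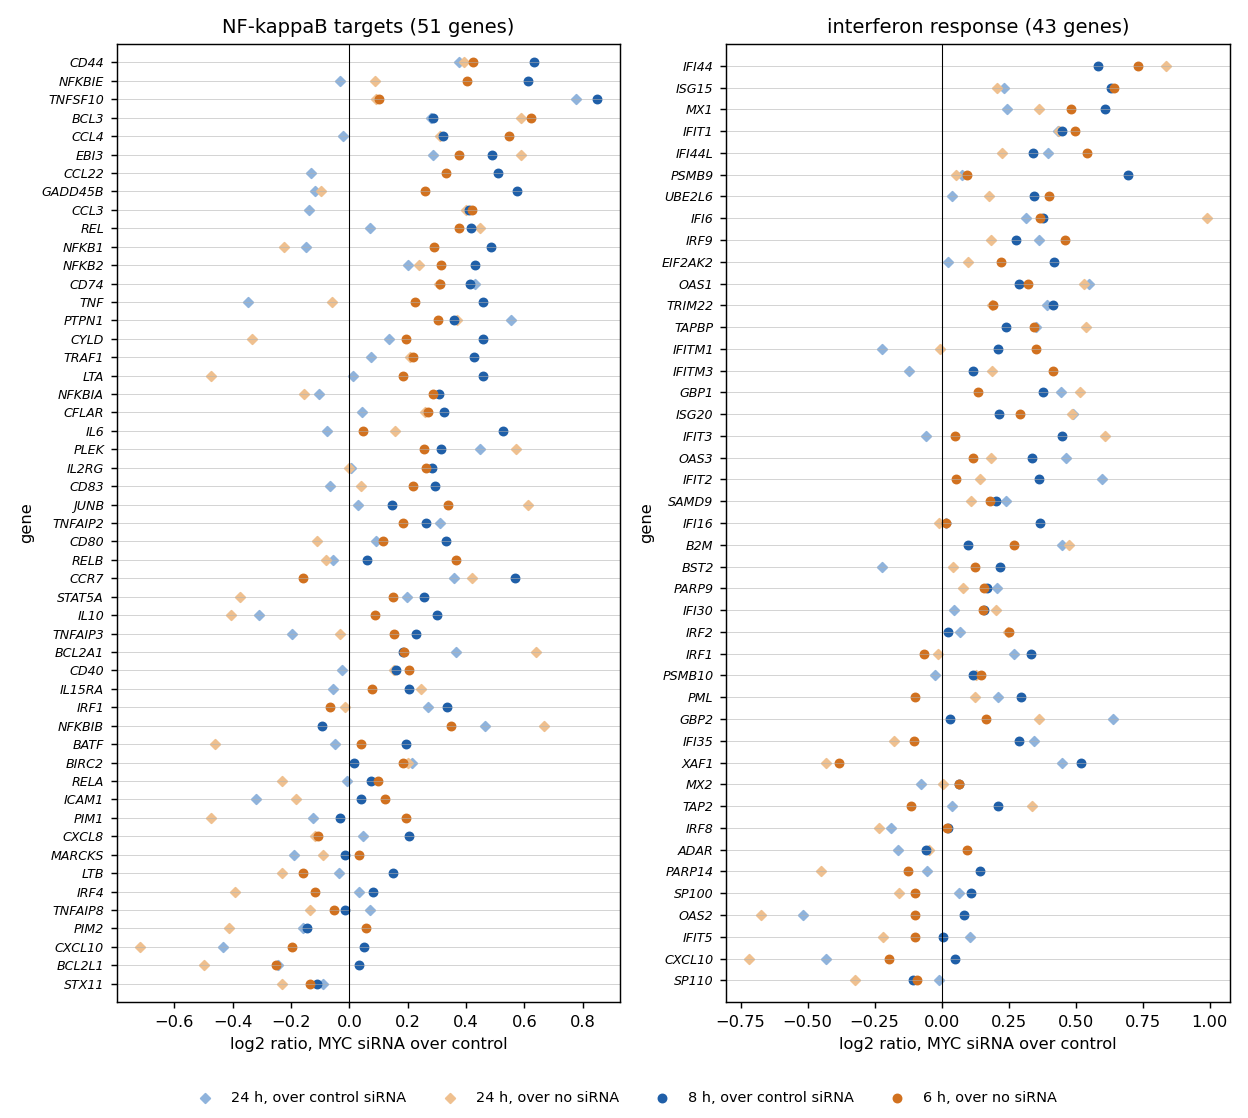
Log2 ratio on each array for the 51 NF-kappaB targets (left) and the 43 interferon response genes (right), ordered by the early mean; circles are the early arrays and diamonds the 24 h arrays. On the left 38 genes have both circles above 0 and many diamonds lie to the left of the circles.

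Cell cycle and B-cell lists had medians near 0. Their counts stand beside 33.3% of all rows below 0 on both arrays and 31.8% above. Of 38 genes of G1/S and DNA replication, 17 were below 0 on both arrays and 14 above, with a median of -0.036; POLA1, the catalytic subunit of DNA polymerase alpha, had -0.42 and -0.47. Of 36 genes of mitosis and G2/M, 17 were below 0 on both and 8 above, with NEK2, a centrosome kinase, at -0.41 and -0.50. At 24 h, 24 of 36 genes of G1/S and DNA replication (66.7%) had lower ratios than early in both pairs, against 27.1% of all rows. Among B-cell transcription factors, HHEX had -0.79 and -0.50 beside ETS1, while PAX5 had 0.02 and -0.02. Of 28 genes of B-cell receptor signalling 12 (42.9%) were above 0 on both and 5 (17.9%) below, with a median of -0.038. CD22 had -0.14 and -0.20 and IGLL1 -0.37 and -0.10, while INPP5D, the SHIP phosphatase, had 0.53 and 0.21. Immediate early genes were mixed, 8 of 25 below 0 on both and 7 above, JUN at 0.41 and 0.46. The p53 pathway had 8 of 19 below 0 on both and 7 above. Of 17 BCL2-family genes, BNIP3L, which acts in mitophagy, had -0.33 and -0.41, opposite to BMF.

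Markers of cell types other than B cells had list medians near 0 in the early ratios, with single markers farther out. The median was 0.077 over 14 T-cell, 0.051 over 3 monocyte, -0.021 over 5 erythroid and -0.049 over 6 NK-cell markers. Of the T-cell markers 7 (50%) were above 0 on both arrays and 3 (21.4%) below, against 31.8% and 33.3% of all rows. T-cell marker means ran from -0.30 to 0.37, and CD3E, of the T-cell receptor complex, had 0.65 and 0.09. GATA1, an erythroid transcription factor, had 0.45 and 0.31. It was 1 of the 5 erythroid markers (20%) at or above 0.3 on both, against 2.61% of all rows, while HBB, a globin, had -0.05 and 0.01. The 13 mature B-cell markers had a median of 0.12, with 7 (53.8%) above 0 on both and 3 (23.1%) below, beside the same shares of all rows. MS4A1, which encodes CD20, had -0.30 and -0.23, and CD79A, of the B-cell receptor, had 0.27 and 0.32. The part of such markers in the other results was not tested.

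The difference between early arrays and 24 h was tested within control kind by limma over 6798 rows. It called 2 rows lower early (0.0294%) and 6 higher (0.0883%), of which 4 were named genes. LGALS1, which encodes the lectin galectin-1, had 0.33 and 0.31 early and 1.48 and 1.36 at 24 h, an early minus 24 h difference of -1.10 ± 0.18 (SE, 2 arrays each) and an adjusted p of 0.0285. NOC3L, a nucleolar protein of ribosome assembly, had 0.27 and -0.11 early and -0.73 and -1.36 at 24 h, a difference of 1.12 ± 0.18 (SE) and an adjusted p of 0.0285. SLC39A14, a zinc and iron importer, had 0.09 and -0.25 early and -0.78 and -1.40 at 24 h, with a difference of 1.01 and an adjusted p of 0.0357. LBR, the lamin B receptor, had 0.15 and 0.79 early and -0.76 and -0.22 at 24 h, with a difference of 0.96 and an adjusted p of 0.0494. These 4 genes were picked by this test on the same arrays. The gap between their early and 24 h values is therefore no separate support. Among genes that did not pass, USP25, a deubiquitinase, had 0.47 and 0.63 early and -0.74 and -0.10 at 24 h (adjusted p 0.053), and HSP90B1, the HSP90 of the endoplasmic reticulum, had 0.23 and -0.59 early and -0.56 and -1.66 at 24 h. ITGAX, an integrin, had 0.14 and 0.18 early and 0.83 and 0.88 at 24 h. NAIP, an inhibitor of apoptosis, had an early minus 24 h difference of -0.69. Other values moved by over 1.5 times when 1 array was left out. The difference for SKI, a corepressor of SMAD signalling with 0 and -0.43 early and 1.02 and 0.24 at 24 h, was -0.84, or -0.45 without the 24 h array against control siRNA. Without that array ANTXR2 went from -0.83 to -0.12. PDIA2 went from -0.85 to -0.37 without the 8 h array and to -1.34 without the 6 h array. Without the 24 h array against no siRNA, HAL went from -0.68 to -0.39 and HSP90B1 from 0.93 to 0.38; without the 24 h array against control siRNA HSP90B1 went to 1.47, and without the 8 h array to 0.52. A single extreme array stood behind the rest: GIT2 had 4.63 at 8 h and 0.26 at 6 h, WASH5P 4.13 at 24 h against control siRNA and -0.04 against no siRNA, CHRNB1 -2.29 on the 24 h array against no siRNA and 0.05 on the other, and DNAJC7 1.13 at 8 h and -0.18 at 6 h. Without the control term on all 4 arrays, 0 rows passed in either direction, so LGALS1, NOC3L, SLC39A14 and LBR did not pass either. The fits with 1 array left out also lacked that term, so a change there cannot be put down to the array alone. Over them the difference ran from -1.16 to -1.04 for LGALS1 and from 0.81 to 1.44 for NOC3L. It ran from 0.70 to 1.33 for SLC39A14 and from 0.64 to 1.28 for LBR.

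The 2 early arrays also differed from each other, and hour, control kind and array cannot be told apart. Opposite signs were found in 2517 of 7274 rows, with both values past 0.3 in 79, and 18 other rows had a value of 0 on an array. Among genes with at least 2 features on both arrays, CYP2J2, a P450 enzyme, had 0.65 at 8 h and -0.30 at 6 h, PIK3R6, a PI3-kinase regulatory subunit, had 0.73 and -0.18, and HOXB8, a homeobox factor, had 0.80 and -0.06. CCR7, a chemokine receptor and NF-kappaB target, had 0.57 and -0.16. SGSH, RIN3, IL12RB1 and HSP90B1 were also above 0 at 8 h and below 0 at 6 h. In the other direction UGGT2, which checks glycoprotein folding, had -0.56 at 8 h and 0.44 at 6 h, SOCS2, a cytokine signalling inhibitor, had -0.15 and 0.57, and MXD1 had -0.12 and 0.63. PIK3R3, ANKRD49 and VBP1 were below 0 at 8 h and above 0 at 6 h. BMP6 and NDUFAB1 were below 0 on both arrays, with -0.77 and -0.73 at 8 h and -0.11 and -0.12 at 6 h. These differences were not tested.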

How the data were processed

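Cy5 over Cy3 log2 ratios, deposited by the authors as 1 value per feature and array, were used as given. How they were normalized and why some cells are empty is not given in the sources used here, so signal over background is unknown. Of 15154 features, 10165 had 1 symbol, 4 several and 4985 none; symbols came from the platform annotation, and 10124 were matched by Entrez ID to RefSeq (GRCh38.p14, names and promoters alone). Features of 1 symbol were averaged on each array. The mean of the 2 early arrays was tested against 0 with limma 3.58.1 (R 4.3.3), with 1 residual and 7.41 prior degrees of freedom; the median standard error was 0.125. Early and 24 h arrays were compared with control kind as a term. Adjusted p-values are Benjamini-Hochberg over all rows, threshold 0.05. An exact sign-flip test of 2 arrays cannot go below p = 0.5. The code was tested on simulated data.

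Genes named were MYC; the 15 lowest and 15 highest by the array nearer to 0, filled from those with unadjusted p under 0.05 where fewer passed; in each list up to 4 members that follow the sign of its median; 8 each way for early against 24 h and for 8 h minus 6 h (genes with 2 or more features on both arrays). Other list members are named to show roles or exceptions and were chosen after their values were seen. Members and lists were chosen with earlier results of these data known. Alternatives were other scalings, averaging of features, row filters, fits and left-out arrays. Array identifiers fall into 2 ranges that go with the kind of control, so experiment and control kind cannot be told apart.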

Additional observations from a re-analysis of the deposited data

Results flagged for a closer look

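The ratio differed between the early arrays and 24 h, by limma with control kind as a term, in 8 rows, and these were marked for that difference. For LGALS1 (galectin-1) early minus 24 h was -1.10, with early values of 0.33 and 0.31. For NOC3L it was 1.12, for SLC39A14 1.01 and for LBR 0.96, all with 24 h values below 0. The other 4 rows are features without a symbol, with differences of -1.39, 1.17, 0.97 and 1.08. Of these, the features with 1.17 and 0.97 had early log2 ratios of 0.89 and 0.64 and of 0.91 and 0.74, and lay at 0.10 and -0.92 and at 0.12 and -0.41 at 24 h. Errors in this fit rest on 17.5 prior against 1 residual degree of freedom. The calls depend on scaling and on the control term, as given below.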

How the results depend on the processing

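Early rows lower than 0 numbered 1 by limma, and 0 with a fit of early and late means on all 4 arrays, with arrays centred, and with arrays centred and scaled. They numbered 4 with the median of features, 4 over rows valued on all 4 arrays, 48 over single features and 129 with time and control kind as terms. Rows higher than 0 numbered 27 over single features and 86 with both terms. Leaving out 1 early array, with the lone array assumed to vary like the others, gave 0 to 0 lower and 0 to 1 higher. At an unadjusted p under 0.05 the counts lay between 198 and 1176 lower and between 173 and 976 higher over these fits. MYC passed with the median of features (-1.10, adjusted p 0.0335), over rows valued on all 4 arrays (-1.10, 0.0206) and with both terms (-1.10, 0.000421); its adjusted p reached 0.236 with arrays centred and 0.854 without the 8 h array. Prior degrees of freedom, from which limma sets the errors, were 7.41 as reported, 5.37 with arrays centred and 14.3 over single features. Rows past 0.3 on both arrays numbered 298 higher after scaling, and 623 lower and 395 higher over single features.

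For early against 24 h, 0 rows lower and 0 higher passed without the control term, where 437 had an unadjusted p under 0.05, and 0 and 0 after scaling, where 534 did. With arrays centred 17 and 44 passed, in a fit whose prior degrees of freedom became infinite, so that every row took the pooled spread; over single features 11 and 63 passed. The fits with 1 array left out also lacked the control term. CHRNB1 turned direction, with a range of -0.053 to 2.28 over left-out arrays. On 1 early array at a time the median was -0.16 to -0.14 for ribosome biogenesis and -0.19 to -0.10 for mitochondrial import and ribosome. Of the values for named genes on the early arrays, 267 kept their side of the threshold and 41 passed it newly. The causes were not tested. With 2 arrays and no dye swap, a dye effect of single features cannot be told apart from the siRNA effect.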

Other observations

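Genes of MHC class II, which presents antigen to T cells, lay higher at 24 h than early in most members; CD74, the invariant chain, also stands among the NF-kappaB targets. Of 14 measured, 7 (50%) were above 0 on both early arrays and 4 (28.6%) below, against 31.8% and 33.3% of all rows. The early median was 0.09. At 24 h 10 were above 0 on both arrays, where 1358 of 3954 named genes were, with a median of 0.23. Within control kind 0 of 14 were higher early in both pairs and 8 (57.1%) were lower. Over all rows those shares were 27.1% and 27.4%. CIITA, the coactivator of these genes, had 0.05 and 0.11 early and 0.40 and 0.30 at 24 h. HLA-DMB, which loads peptide, had 0.02 and 0.19 early and 0.35 and 0.48 at 24 h. None passed the adjusted threshold by limma.

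Of 24 endoplasmic reticulum genes of folding and stress, 8 (33.3%) were below 0 on both early arrays, the same share as the 33.3% of all rows. Above 0 on both were 2 (8.33%), against 31.8% of all rows. The median was -0.07 early and -0.23 at 24 h. LMAN1, a cargo receptor, had -0.16 and -0.40 early and -0.81 and -0.91 at 24 h. Of 8 histone genes, 4 (50%) were above 0 on both early arrays, against 31.8% of all rows, and 0 below.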
